A study of Mus musculus with 22 samples.

Results

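The livers of 20-month-old male mice without Slc10a1 were compared with those of male wild-type mice of the same age, both of strain C57BL/6. The comparison used the 3 libraries titled as Slc10a1 KO at 20 months (genotype Slc10a1-/-) and the 3 titled as WT at 20 months, 6 of the 22 libraries of the study, chosen by title and not by any measured value. The other 16 libraries came from KO and WT livers of the same strain and sex at 4 weeks (3 and 3) and at 8 weeks (6 and 4), and they enter here only where the aged livers are set against the younger ones. The labels do not say which stretch of the gene was deleted, how the animals were housed, or whether livers came from littermates, so p-values measure the spread between these samples alone. Poly(A) RNA was sequenced and reads were counted per gene; values are given as CPM (counts relative to the library's total, scaled by TMM) for each library by its replicate number (KO 1, 2 and 3; WT 1, 2 and 3).

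Slc10a1 encodes NTCP, the sodium-dependent carrier on the blood-facing membrane of hepatocytes that takes conjugated bile acids up from portal blood. Inside the hepatocyte, bile acids bind the nuclear receptor FXR (Nr1h4). FXR lowers bile acid synthesis through SHP (Nr0b2), and it also raises export. Hepatocytes also make the acute-phase proteins, a set of plasma proteins such as serum amyloid A and orosomucoid whose genes are switched on by interleukins 6 and 1 during inflammation or injury.

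On the first 2 principal components the 6 livers did not divide by genotype. WT 1 and WT 2 had very high levels of acute-phase and of neutrophil transcripts, whereas WT 3 had levels close to those of the KO livers. edgeR's quasi-likelihood test called 0 of 13966 genes higher and 0 lower in KO at an adjusted p of 0.05 (0% in either direction). At an unadjusted p of 0.05 it passed 232 genes higher in KO (1.66%) and 540 lower (3.87%). DESeq2's Wald test on the same 6 libraries called 7 genes higher (0.0495% of 14146) and 46 lower (0.325%). All 3 KO libraries lay above all 3 WT libraries in 762 genes (5.46%) and below them in 658 (4.71%). Shares of this size can arise with 3 livers against 3 without any group difference, so separation alone is no evidence of a KO effect. Each gene below is therefore given library by library.

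Counts assigned to genes ranged from 18032355 to 26789350 per library, and 3 counts, the limit that a count of 0 allows, came to 0.112 to 0.166 CPM (counting error only). Reads outside genes made up 14.7%, 7.71% and 7.42% in KO 1, 2 and 3, against 8.52%, 8.31% and 7.0% in WT 1, 2 and 3. WT 3 correlated most closely with KO 2 and KO 3, at r = 0.987 and 0.988 across the log2 CPM of 13966 genes, about as closely as KO 2 with KO 3 (0.989). Its correlation with WT 1 was 0.895 and with WT 2 0.960. The first principal component, with 64.2% of the variance, placed KO 1, 2 and 3 at 3.87, -36.4 and -43.3, against 92.9, 27.8 and -44.9 for WT 1, 2 and 3. The second, with 16.7%, set KO 1 apart from the other 5 libraries. No 2 libraries were duplicates: chi-square over degrees of freedom was 25.7 or more for every pair. All 12 hepatocyte markers were abundant enough to be tested, with summed levels of 75319.9, 96814 and 98207 CPM in KO 1, 2 and 3, against 47033, 67528 and 73370.5 CPM in WT 1, 2 and 3, as were 1 of 7 fat, 1 of 11 pancreas and 3 of 10 muscle and gut markers. Genes are not independent replicates, so these correlations describe the libraries and carry no test.

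**Figure D1:**
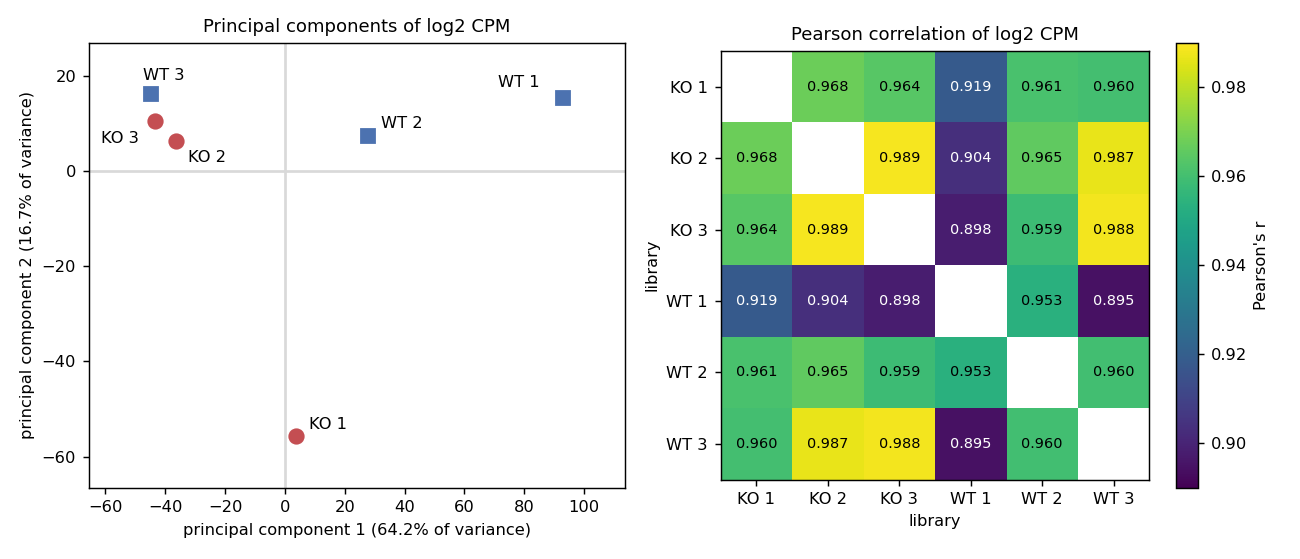
The left panel plots the first 2 principal components of log2 CPM for the 6 libraries at 20 months (KO circles, WT squares), and the right panel gives Pearson's r between libraries over 13966 genes. WT 3 lies beside KO 2 and KO 3, WT 1 and WT 2 lie to the right, and KO 1 lies alone at the bottom.

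The deleted gene was lower in every KO library. Slc10a1 (chr12:80953183-80968705, GRCm38, minus strand) had 109, 94.1 and 94.7 CPM in KO 1, 2 and 3, against 160.1, 379.6 and 297 CPM in WT 1, 2 and 3. The groups did not overlap, but WT 1 was well below WT 2 and WT 3 and closest to the KO libraries. The fitted log2 fold change was -1.49 ± 0.32 (SE), with an adjusted p of 0.821 by edgeR and 0.0101 by DESeq2. With WT 3 as the only WT library it was -1.59. Without WT 1 it was -1.77. The counts cover the whole gene, so the KO value does not show how much of the transcript was intact. In the fit of all 22 libraries the fold change was -1.93 ± 0.30 at 4 weeks, -2.73 ± 0.23 at 8 weeks and -1.49 ± 0.30 at 20 months, with edgeR adjusted p of 0.00113, 3.01e-06 and 0.0869.

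Of the 7 genes DESeq2 called higher in KO, all had their 3 KO values above all 3 WT values, WT 3 included. Over all genes edgeR tested, 5.46% lay so, and these 7 were already called for a group difference. Lrtm1, which encodes a transmembrane protein with leucine-rich repeats, had 61.1, 51.0 and 63.3 CPM in KO 1, 2 and 3, against 19.4, 21.7 and 22.4 CPM in WT 1, 2 and 3. Both groups were tight and well separated, with a log2 fold change of 1.46 ± 0.16, which was 1.37 against WT 3 alone. Its adjusted p was 2.55e-07 by DESeq2 and 0.421 by edgeR, the lowest of all genes by both tools. Ppp1r3c, a subunit that brings protein phosphatase 1 to glycogen and so favours glycogen synthesis, had 33.7, 71.4 and 73.8 CPM in KO 1, 2 and 3, against 14.9, 18.1 and 23.1 CPM in WT 1, 2 and 3. KO 1 was the lowest of the KO livers and still exceeded each WT liver. Rgs16, a regulator that shortens signalling of G-protein-coupled receptors, had 188, 393 and 382 CPM in KO 1, 2 and 3, against 9.89, 23.3 and 89.6 CPM in WT 1, 2 and 3, and its exons overlap those of Gm28513. The spread was wide in both groups, and WT 3, the highest WT liver, still lay below KO 1, the lowest KO liver.

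Hamp2, a close copy of the hepcidin gene Hamp, had 14.7, 55.1 and 59.9 CPM in KO 1, 2 and 3, against 5.14, 3.12 and 13.1 CPM in WT 1, 2 and 3; WT 3 was the highest WT liver and lay just under KO 1. Spry4, an inhibitor of growth factor receptor signalling, had 7.79, 10.9 and 12.5 CPM in KO 1, 2 and 3, against 3.09, 3.44 and 4.81 CPM in WT 1, 2 and 3. The remaining 2 calls were predicted genes outside the naming rule, named here after their values were seen. 1810053B23Rik had 9.58, 21.6 and 21.8 CPM in KO 1, 2 and 3, against 3.49, 3.65 and 3.90 CPM in WT 1, 2 and 3, and Gm15890 had 2.34, 3.19 and 3.76 CPM in KO 1, 2 and 3, against 1.11, 0.688 and 1.03 CPM in WT 1, 2 and 3. DESeq2's adjusted p was 0.00806 for Ppp1r3c, 0.00806 for Rgs16, 0.0124 for Hamp2, 0.0121 for Spry4, 3.32e-05 for 1810053B23Rik and 0.0344 for Gm15890.

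Other genes of mean log2 CPM of at least 1 with every KO library above every WT library passed neither test. Nr0b2, the bile-acid-induced repressor SHP, had 19.9, 7.97 and 13.5 CPM in KO 1, 2 and 3, against 4.85, 6.19 and 4.81 CPM in WT 1, 2 and 3, a log2 fold change of 1.39 ± 0.35 with an adjusted p of 0.0601 by DESeq2. Its 3 WT values were close together and the KO values spread more than 2-fold. Il15ra, a receptor chain that presents interleukin 15, had 55.8, 49.6 and 43.5 CPM in the KO libraries, against 33.5, 34.1 and 33.2 CPM in the WT libraries. Epha2, an ephrin receptor kinase, had 32, 23 and 27.2 CPM in the KO libraries, against 17.3, 14.9 and 13.0 CPM in the WT libraries. Zfp276 and Cep85l, both with exons shared with neighbouring genes, had log2 fold changes of 0.88 ± 0.17 and 0.86 ± 0.23.

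Among the 46 genes DESeq2 called lower in KO, 15 had all KO libraries below all WT libraries. Over all genes edgeR tested, 4.71% lay so. The 46 were already called for a group difference, so their separation is no further evidence. Several of them, such as Moxd1, Fcnb and Ms4a3, did not pass edgeR's filter on low counts. In 40 of the 46, WT 3 was within 2-fold of the KO mean (after adding 0.1 CPM), so the difference lay between WT 1 and WT 2 on one side and the other 4 livers on the other. In 3, WT 3 was at least 2-fold below the KO mean. The other 3 had WT 3 at least 2-fold above the KO mean, and they were Slc10a1, Slc25a25 and Chil1, the last named after its values were seen.

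Slc25a25, a mitochondrial carrier that exchanges ATP-magnesium for phosphate, had 166, 142 and 149 CPM in KO 1, 2 and 3, against 428, 284 and 313 CPM in WT 1, 2 and 3. Every WT liver was far above the highest KO liver, with a log2 fold change of -1.16 ± 0.22, -1.05 against WT 3 alone, and an adjusted p of 0.00402 by DESeq2. Chil1, a chitinase-like protein of myeloid cells, had 0.596, 0.228 and 0.519 CPM in KO 1, 2 and 3, against 41.9, 4.76 and 1.03 CPM in WT 1, 2 and 3; WT 1 stood far above WT 2 and WT 3. In Smpd3, a neutral sphingomyelinase, WT 3 was only just above the KO livers, with 0.550, 0.638 and 0.909 CPM in the KO libraries, against 17.4, 7.78 and 1.2 CPM in the WT libraries. Uap1l1 had 7.51, 5.83 and 6.27 CPM in the KO libraries, against 22.7, 18.8 and 9.51 CPM in the WT libraries. Plk3, a stress-responsive polo-like kinase, had 45.3, 46.8 and 52.2 CPM in the KO libraries, against 137, 66.5 and 123 CPM in the WT libraries, which passed neither test (adjusted p of 0.0556 by DESeq2). Etfbkmt, a methyltransferase of a mitochondrial electron carrier, had 30.1, 42.1 and 40.8 CPM in the KO libraries, against 58.8, 96.8 and 74.2 CPM in the WT libraries and Fabp7, a fatty acid binding protein, 9.49, 9.07 and 11.5 CPM in the KO libraries, against 17.7, 18.8 and 15.1 CPM in the WT libraries, also without passing.

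**Figure D2:**
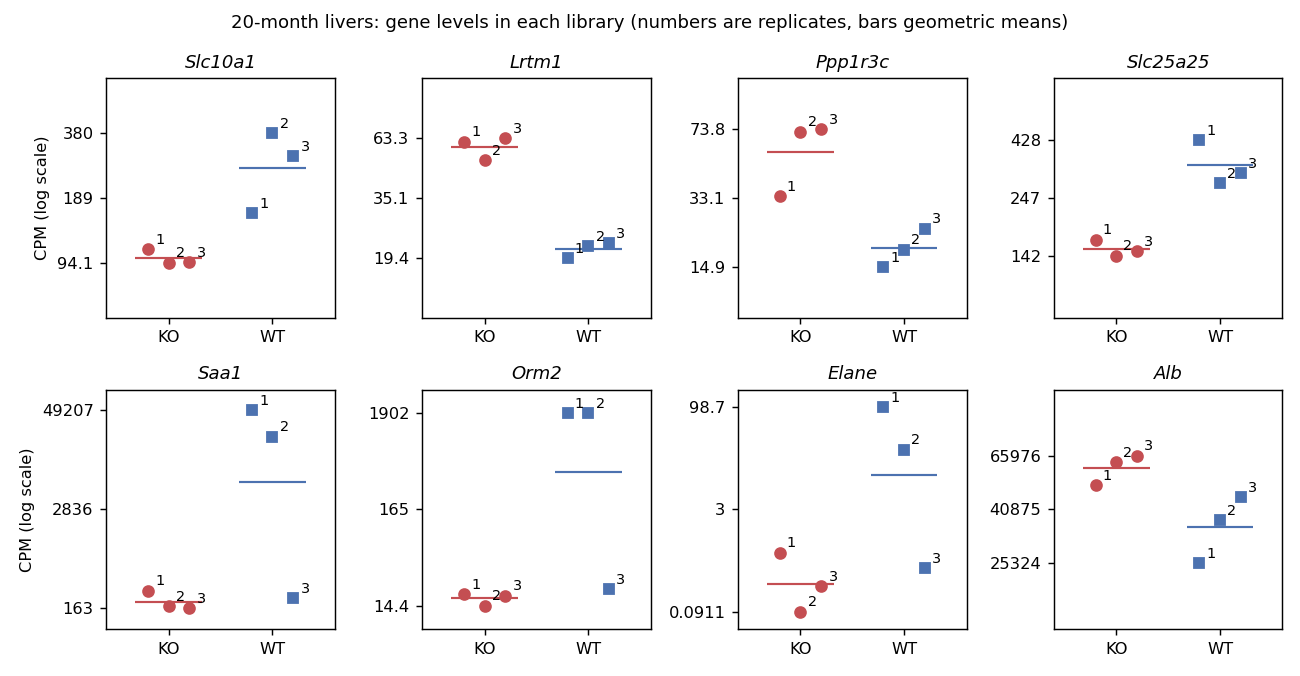
CPM of 8 genes in each 20-month library on a log scale that differs between panels, KO left (circles) and WT right (squares), with replicate numbers and the geometric mean of each group as a bar. Lrtm1 and Ppp1r3c are higher in every KO library and Slc10a1 and Slc25a25 lower, while Saa1, Orm2 and Elane are high in WT 1 and WT 2 alone.

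Serum amyloid A, an acute-phase protein carried on high-density lipoprotein, was scarce in 4 livers and abundant in WT 1 and WT 2. Saa1 had 273, 175 and 163 CPM in KO 1, 2 and 3, against 49207, 22903 and 219.9 CPM in WT 1, 2 and 3. Saa2 had 284, 155 and 150.0 CPM in KO 1, 2 and 3, against 59127, 28848 and 184 CPM in WT 1, 2 and 3. WT 1 and WT 2 stood far above every KO liver, while WT 3 lay within the KO range in both genes. Both genes together took 0.0616%, 0.0314% and 0.0298% of gene counts in KO 1, 2 and 3, against 11.2% (95% Wilson interval 11.2% to 11.3%), 5.12% (5.11% to 5.13%) and 0.0391% (0.0382% to 0.0401%) in WT 1, 2 and 3. The fitted log2 fold changes, -6.89 ± 1.69 for Saa1 and -7.23 ± 1.79 for Saa2, had an adjusted p of 0.00432 and 0.00402 by DESeq2 and 0.821 for both by edgeR. Against WT 3 alone they were -0.12 and 0.08. The transcripts of Saa1 and Saa2 are near copies, with 572 of 609 aligned bases identical, so how reads were divided between them is uncertain. Saa3, a preset gene of the same family, differed less, and its groups overlapped. Its lowest, median and highest levels (TMM factors of 22 libraries) were 4.50, 6.49 and 13.6 CPM in KO, against 5.08, 19.6 and 41.7 CPM in WT.

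At an unadjusted p of 0.05 by edgeR, 20 of the 39 acute-phase genes tested were lower and 1 higher in KO. Over all genes tested these shares were 3.87% and 1.66%. DESeq2 called 8 lower and 0 higher. The median log2 fold change of the list was -1.07, beside a median of -0.003 over all genes tested. Against WT 3 alone the median was 0.07. Together these genes took 4.06%, 3.41% and 3.19% of counts in KO 1, 2 and 3, against 23.1%, 13.2% and 3.10% in WT 1, 2 and 3. Orm2, an orosomucoid that carries drugs and dampens immune cells, had 19.3, 14.4 and 18.6 CPM in KO 1, 2 and 3, against 1886, 1902 and 21.7 CPM in WT 1, 2 and 3; here WT 3 was above the KO livers, but by a small margin. Orm1 had 483, 684 and 522 CPM in KO 1, 2 and 3, against 5612, 3618 and 724 CPM in WT 1, 2 and 3. Apcs, the serum amyloid P component, the major acute-phase pentraxin of mice, had 101, 68.5 and 52.0 CPM in KO 1, 2 and 3, against 1055, 473 and 75.3 CPM in WT 1, 2 and 3. Fgl1, a fibrinogen-like hepatokine, had 1011, 588 and 427 CPM in KO 1, 2 and 3, against 4784, 4139 and 839 CPM in WT 1, 2 and 3, with KO 1 above WT 3. In Apcs too WT 3 lay within the KO range.

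The other 6 of the 8 most abundant members, beside Saa1 and Saa2, differed less. The fibrinogen chains Fgb, Fga and Fgg had log2 fold changes of -0.92 ± 0.51, -0.84 ± 0.40 and -0.97 ± 0.47. Hpx, which binds free haem, had 1864, 2139 and 2257 CPM in the KO libraries, against 11928, 9264 and 2111 CPM in the WT libraries. Hp, which binds free haemoglobin, had 2455, 2149.8 and 2251 CPM in the KO libraries, against 11263, 6950.4 and 1877 CPM in the WT libraries, and the complement protein C3 had 4058, 3717 and 3901 CPM in the KO libraries, against 7791, 6835 and 3438 CPM in the WT libraries. In each of these 6 genes WT 1 was the highest and WT 2 second; WT 3 was the lowest of the 6 livers in 5 of them and within the KO range in Hpx. Hamp, the iron hormone hepcidin, did not follow Saa1, with 2063, 1526 and 902 CPM in KO 1, 2 and 3, against 1250.1, 582 and 530.5 CPM in WT 1, 2 and 3. Alb, the main plasma protein and one that is lowered in the acute phase, had 50754, 62269.9 and 65976 CPM in KO 1, 2 and 3, against 25324, 37126 and 45462 CPM in WT 1, 2 and 3.

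Promoters of 4 of these genes are shown because their transcripts were high in the same 2 WT livers. Each is the 250 bases before the RefSeq start (GRCm38.p6), 5′ to 3′ on the gene's strand, with the C/EBP-type motif TTGCNNAA (or its reverse TTNNGCAA) in capitals; the acute-phase activator C/EBP-beta binds such sites. Saa1 lies at chr7:46742981-46743230 (minus strand), Saa2 at chr7:46751583-46751832 (plus strand), Orm2 at chr4:63362199-63362448 (plus strand) and Lcn2 at chr2:32387740-32387989 (minus strand).
Saa1: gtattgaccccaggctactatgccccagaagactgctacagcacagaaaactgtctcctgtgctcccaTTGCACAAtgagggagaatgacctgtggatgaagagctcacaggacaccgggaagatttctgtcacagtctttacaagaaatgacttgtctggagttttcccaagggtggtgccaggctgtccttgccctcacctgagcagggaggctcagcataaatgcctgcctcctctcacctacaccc
Saa2: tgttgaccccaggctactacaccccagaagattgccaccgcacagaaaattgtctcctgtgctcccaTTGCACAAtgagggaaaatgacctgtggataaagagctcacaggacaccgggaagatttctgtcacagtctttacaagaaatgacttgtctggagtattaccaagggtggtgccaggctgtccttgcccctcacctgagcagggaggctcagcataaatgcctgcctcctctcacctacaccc
Orm2: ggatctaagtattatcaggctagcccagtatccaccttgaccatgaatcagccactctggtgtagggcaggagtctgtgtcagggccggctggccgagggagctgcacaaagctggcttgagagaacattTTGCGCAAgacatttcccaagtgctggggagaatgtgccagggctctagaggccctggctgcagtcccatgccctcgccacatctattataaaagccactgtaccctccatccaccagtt
Lcn2: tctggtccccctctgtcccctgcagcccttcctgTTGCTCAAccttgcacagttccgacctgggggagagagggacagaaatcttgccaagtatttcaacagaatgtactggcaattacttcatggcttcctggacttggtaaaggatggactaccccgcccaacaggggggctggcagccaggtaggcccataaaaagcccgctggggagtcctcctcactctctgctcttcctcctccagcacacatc
The windows of Saa1 and Saa2, which are read in opposite directions from neighbouring starts, were identical in 238 of 251 aligned positions (94.8%). Both have the motif at nearly the same place, 182 and 183 bases before the start. All 4 windows held that motif once, and none held TTCNNNGAA (STAT) or the NF-kB motif, both strands searched. Of all 32851 RefSeq promoter windows of this length, 9.56% held TTGCNNAA, 7.02% TTCNNNGAA and 0.356% the NF-kB motif. For the acute-phase list, 30 genes matched with 34 windows, of which 44.1%, 20.6% and 2.94% held these motifs. Of the 6 acute-phase genes with a window that DESeq2 called lower in KO, 5 held TTGCNNAA, 1 TTCNNNGAA and 0 the NF-kB motif. A match is only a description of the letters in the window.

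Transcripts of neutrophils and their precursors were present in the same 2 WT livers. In the neutrophil marker list, 13 of 14 tested genes were lower in KO at an unadjusted p of 0.05 by edgeR (all genes: 3.87%). The 14 genes had a median log2 fold change of -6.48, and 0.68 against WT 3 alone. After adjustment edgeR called 0 of them and DESeq2 8, all lower in KO. Their summed level was 47.0, 23.4 and 25.3 CPM in KO 1, 2 and 3, against 6035, 1125 and 25.9 CPM in WT 1, 2 and 3. Lcn2, which hepatocytes also make in the acute phase, had 19.4, 12.5 and 13.3 CPM in KO 1, 2 and 3, against 1818, 602 and 15.2 CPM in WT 1, 2 and 3. S100a9, a calcium-binding protein abundant in neutrophil cytosol, had 6.74, 3.46 and 4.02 CPM in KO 1, 2 and 3, against 1771, 170.4 and 4.24 CPM in WT 1, 2 and 3. Elane, neutrophil elastase, which is transcribed in promyelocytes of the marrow rather than in mature neutrophils, had 0.687, 0.0911 and 0.216 CPM in KO 1, 2 and 3, against 98.7, 23.1 and 0.401 CPM in WT 1, 2 and 3. KO 2 lay below the limit that a count of 0 allows, and WT 3 within the KO range.

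In other granule genes too, WT 1 was highest and WT 2 second. Mpo, myeloperoxidase, had 2.06, 0.638 and 0.346 CPM in the KO libraries, against 273, 43.3 and 0.344 CPM in the WT libraries. Camp, the cathelicidin, had 0.779, 0.273 and 0.216 CPM in the KO libraries, against 179, 22.4 and 0.286 CPM in the WT libraries, and Ltf, lactoferrin, 1.83, 0.592 and 0.606 CPM in the KO libraries, against 436, 62.2 and 0.458 CPM in the WT libraries. Outside the list, DESeq2 also called the granule genes Prtn3, Ctsg, Fcnb and Pglyrp1, and Ms4a3, a membrane protein of granulocyte and monocyte progenitors, lower in KO, named after their values were seen; Prtn3 had 0.596, 0.319 and 0.173 CPM in the KO libraries, against 194, 58.3 and 0.286 CPM in the WT libraries. In bulk liver, fewer cells of a type and less RNA per cell cannot be told apart. In the macrophage list 5 of 19 tested genes were lower at an unadjusted p of 0.05 and 0 higher (all genes: 3.87% and 1.66%). The list's scores (mean log2 CPM minus the mean of the 6 libraries) were 0.25, -0.85 and -0.80 in KO 1, 2 and 3, against 1.57, 0.73 and -0.89 in WT 1, 2 and 3. Cd5l, a macrophage protein, had 96.2, 69.7 and 112 CPM in the KO libraries, against 437, 284 and 92.2 CPM in the WT libraries, and Ccr2 and Ly6c2, genes of blood monocytes, were likewise highest in WT 1, Ly6c2 with 0.825, 0.683 and 0.303 CPM in the KO libraries, against 31.6, 7.99 and 0.229 CPM in the WT libraries. The endothelial list, of which 0 of 18 genes passed, had summed levels of 589, 582 and 578 CPM in KO 1, 2 and 3, against 547, 565 and 543 CPM in WT 1, 2 and 3.

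Genes of the cell cycle were highest in WT 1. In that list 6 of 25 tested genes were lower in KO at an unadjusted p of 0.05 and 0 higher (all genes: 3.87% and 1.66%). After adjustment 0 were called by either tool, and the list's median log2 fold change of -1.09 became 0.41 against WT 3 alone. Mki67, the proliferation marker, had 7.10, 2.23 and 1.30 CPM in the KO libraries, against 86.3, 13.7 and 1.66 CPM in the WT libraries, and Birc5, survivin, had 1.42, 1.46 and 1.30 CPM in the KO libraries, against 14.8, 3.70 and 0.917 CPM in the WT libraries. WT 2 lay between WT 1 and the other livers in both. In the tumour and oncofetal list the sum was 58.1, 39.4 and 33.9 CPM in KO 1, 2 and 3, against 1966, 664 and 37.0 CPM in WT 1, 2 and 3, with Lcn2 the main part in WT 1 and WT 2; Afp, the fetal albumin homologue, had 3.62, 1.64 and 1.90 CPM in the KO libraries, against 2.19, 2.28 and 1.26 CPM in the WT libraries and overlapped. Spp1, osteopontin, had 25.0, 23.8 and 20.2 CPM in the KO libraries, against 194, 83.7 and 21.2 CPM in the WT libraries. What part the neutrophil transcripts have in the cell cycle and macrophage values was not tested.

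**Figure D3:**
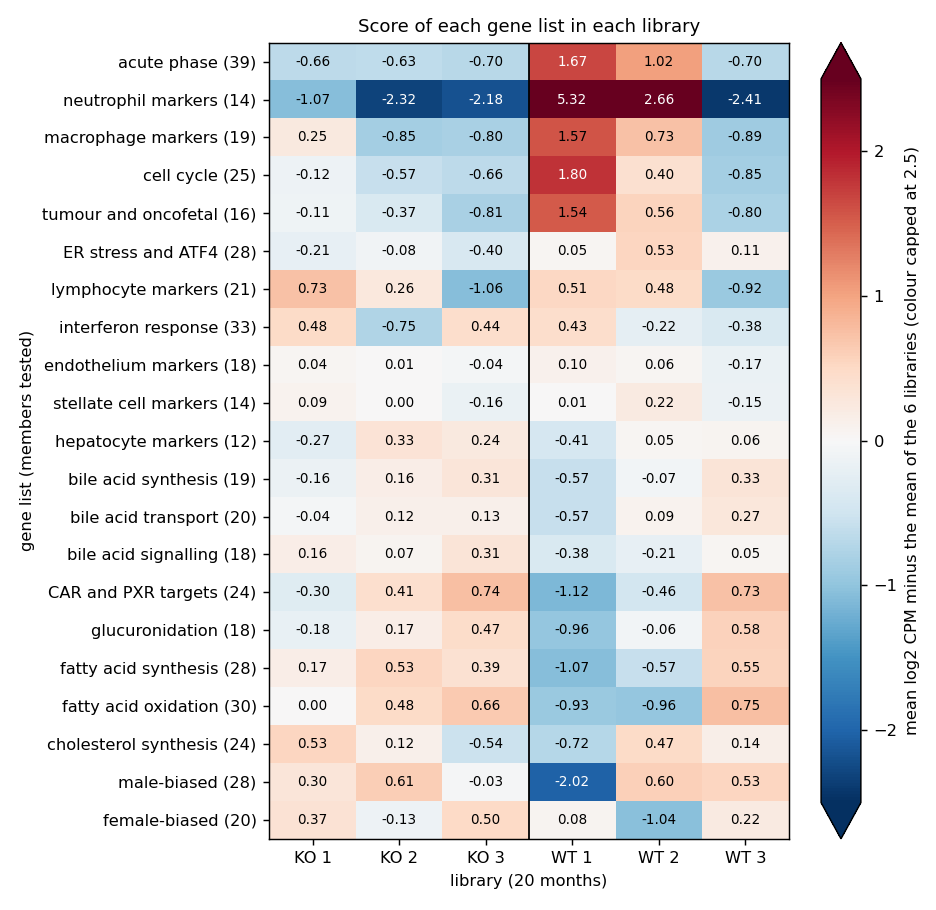
Score of 21 gene lists (mean log2 CPM of the tested members minus the mean of the 6 libraries) in each 20-month library, KO left of the line and WT right, with the number of members tested in brackets. WT 1 and WT 2 share high acute-phase (1.67 and 1.02) and neutrophil (5.32 and 2.66) scores. In these lists WT 3 (-0.70 and -2.41) is close to KO 2 and KO 3, which is not so in every list. The male-biased list is low in WT 1 alone (-2.02).

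Without WT 3, edgeR called 7 genes higher (0.0477% of 14682) and 64 lower (0.436%), 71 in all against 0 with WT 3, and 33 of these 71 were among the 53 DESeq2 calls. Of the 64 lower ones, 11 were in the acute-phase list and 10 in the neutrophil list, with Lcn2 in both. Of the 7 higher ones, Lrtm1, Rgs16 and Klf10 also had every KO value above WT 3. Klf10, a growth-factor-induced repressor, and the other 4 were named after their values were seen. Acot1 and Acot3, thioesterases that split acyl-CoA in fatty acid metabolism, had 12.5, 24.3 and 22.3 CPM in the KO libraries, against 2.16, 2.38 and 31.2 CPM in the WT libraries for Acot1 and 10.4, 8.61 and 18.9 CPM in the KO libraries, against 0.431, 0.265 and 16.7 CPM in the WT libraries for Acot3. Me1, malic enzyme, a source of NADPH for fatty acid synthesis, had 221, 296 and 223 CPM in the KO libraries, against 22.7, 45.3 and 327 CPM in the WT libraries. Slc17a8, a glutamate carrier, had 102, 48.8 and 45.8 CPM in the KO libraries, against 3.67, 3.65 and 51.3 CPM in the WT libraries, and Klf10 had 46.1, 54.2 and 52.7 CPM in the KO libraries, against 17.4, 20.9 and 41.0 CPM in the WT libraries. In Acot1, Acot3, Me1 and Slc17a8 WT 3 lay within or above the KO range.

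**Figure D4:**
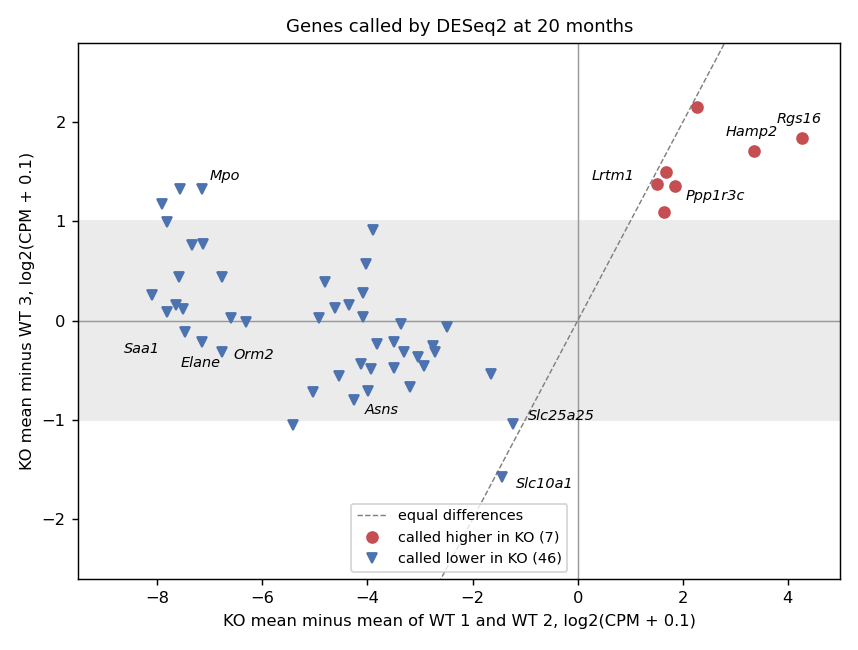
The 53 genes called by DESeq2 at 20 months, by the log2(CPM + 0.1) of the KO mean minus that of the mean of WT 1 and WT 2 (horizontal) and minus that of WT 3 (vertical), with a grey band within 2-fold of WT 3. All 7 genes called higher lie above the band, 40 of the 46 called lower lie in it, and Slc10a1 and Slc25a25 lie near the dashed line of equal differences.

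Apart from Slc10a1, no gene of bile acid transport, synthesis or signalling passed edgeR or DESeq2. Of 20 transport genes tested, DESeq2 called 1, Slc10a1 itself, and edgeR 0. Abcb11, the bile salt export pump, had 622, 522 and 549 CPM in KO 1, 2 and 3, against 261, 405 and 503 CPM in WT 1, 2 and 3; every KO liver exceeded every WT liver, WT 3 by little; its exons overlap Gm13613. Abcc4, an exporter on the blood side, had 1.19, 1.05 and 1.47 CPM in the KO libraries, against 4.28, 1.75 and 2.06 CPM in the WT libraries, with a log2 fold change of -1.13 ± 0.42. The uptake carriers Slco1b2 and Slco1a1 overlapped, Slco1b2 with 743, 894 and 1090.4 CPM in the KO libraries, against 464, 565 and 1121 CPM in the WT libraries and Slco1a1 with 247, 239 and 98.2 CPM in the KO libraries, against 6.87, 114 and 121 CPM in the WT libraries. Of 19 synthesis genes tested, 0 passed either test or an unadjusted p of 0.05. Cyp7a1, the rate-limiting enzyme of bile acid synthesis, had 167, 124 and 119 CPM in KO 1, 2 and 3, against 103, 187 and 153 CPM in WT 1, 2 and 3; Cyp8b1, which sets the cholic acid share, had 334, 167 and 224 CPM in the KO libraries, against 64.5, 112 and 352 CPM in the WT libraries; and Cyp7b1, of the alternative pathway, 146, 165 and 113 CPM in the KO libraries, against 138, 303 and 213 CPM in the WT libraries. All 3 overlapped.

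Over all genes tested, edgeR passed 1.66% as higher and 3.87% as lower in KO at an unadjusted p of 0.05. In the bile acid signalling list of 18 tested genes, 3 were higher at that p and 0 lower, none after adjustment by edgeR or DESeq2. Beside Nr0b2 they were Mafg, a small Maf repressor induced by FXR, with 143, 151 and 176 CPM in the KO libraries, against 102, 115 and 124 CPM in the WT libraries, and Fgf21, a fasting hormone of the liver named after its values were seen, with 1.23 to 1.92 CPM in KO, against 0.159 to 0.859 CPM in WT. Nr1h4 (FXR) itself had 221, 227 and 248 CPM in the KO libraries, against 146, 171 and 259.6 CPM in the WT libraries. In the sulfation list, 0 of 13 tested genes passed. Sult2a8, a bile acid sulfotransferase of mouse liver, had 592, 651 and 636 CPM in KO 1, 2 and 3, against 54.8, 362 and 625 CPM in WT 1, 2 and 3; WT 1 was far lower than the other 5. Papss2, which makes the sulfate donor, had 215, 231 and 201.3 CPM in the KO libraries, against 125, 199 and 226 CPM in the WT libraries. Sult2a1 had at most 0.288 CPM in any library and was not tested.

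In the lists of fatty acid oxidation and of CAR and PXR targets, WT 1 and WT 2 had the lowest scores, KO 1 came next, and KO 2, KO 3 and WT 3 had the highest. For fatty acid oxidation the scores were 0.00, 0.48 and 0.66 in KO 1, 2 and 3, against -0.93, -0.96 and 0.75 in WT 1, 2 and 3, and the median log2 fold change of 0.40 over 30 genes was -0.34 against WT 3 alone. In the list of CAR and PXR targets, genes of drug metabolism, the scores were -0.30, 0.41 and 0.74 in KO 1, 2 and 3, against -1.12, -0.46 and 0.73 in WT 1, 2 and 3. Cyp3a11, the main PXR target, had 807, 1312 and 1948 CPM in the KO libraries, against 571, 1143 and 2077 CPM in the WT libraries. Ppp1r3b, another glycogen-targeting subunit, had 299.6, 328 and 290.2 CPM in KO 1, 2 and 3, against 118, 148 and 231 CPM in WT 1, 2 and 3, without passing (adjusted p of 0.246 by DESeq2). Of the 24 glucose and glycogen genes tested, 2 were higher and 1 lower at an unadjusted p of 0.05 (all genes: 1.66% and 3.87%). DESeq2 called 1, Ppp1r3c.

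In the endoplasmic reticulum (ER) stress list WT 2, not WT 1, had the highest score, with -0.21, -0.08 and -0.40 in KO 1, 2 and 3, against 0.05, 0.53 and 0.11 in WT 1, 2 and 3. Of 28 tested genes, 7 were lower and 1 higher in KO at an unadjusted p of 0.05 (all genes: 3.87% and 1.66%). After adjustment 0 were called by edgeR and 1 by DESeq2, Asns. The median of -0.36 was -0.21 against WT 3 alone. Asns, asparagine synthetase, had 1.6, 1.23 and 0.303 CPM in KO 1, 2 and 3, against 13.7, 29.9 and 1.89 CPM in WT 1, 2 and 3. Manf, a secreted protein of the ER, had 102, 135 and 68.7 CPM in the KO libraries, against 127, 320.3 and 177 CPM in the WT libraries. Hsp90b1 and Creld2, an ER chaperone and an ER redox protein, were named after their values were seen. Hsp90b1 had 988, 1236 and 887 CPM in the KO libraries, against 1261, 2401 and 1786 CPM in the WT libraries, and Creld2 had 30.8, 60.9 and 27.7 CPM in the KO libraries, against 40.3, 174 and 97.9 CPM in the WT libraries. In Manf, Hsp90b1 and Creld2, WT 2 was highest and WT 3 second.

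The male-biased list had its lowest score in WT 1, though not every member was low there. The scores were 0.30, 0.61 and -0.03 in KO 1, 2 and 3, against -2.02, 0.60 and 0.53 in WT 1, 2 and 3, and the median log2 fold change of 28 genes was 0.04. Mup20, a major urinary protein that serves as a male pheromone, had 1027, 1308 and 867 CPM in KO 1, 2 and 3, against 263, 2055 and 1101 CPM in WT 1, 2 and 3. Elovl3, a fatty acid elongase with male-biased expression, had 109.7, 138 and 142 CPM in the KO libraries, against 7.69, 78.3 and 139 CPM in the WT libraries. Sult1e1, oestrogen sulfotransferase, had 13.6, 20.8 and 11.4 CPM in KO 1, 2 and 3, against 160.3, 4.44 and 2.41 CPM in WT 1, 2 and 3; the high value belonged to WT 1, and KO livers lay above WT 2 and WT 3. Its log2 fold change of -1.87 ± 1.38 was 2.15 without WT 1. Moxd1, a monooxygenase-like member of the male-biased list named after its values were seen, went the other way, with 0.183, 0.410 and 0.173 CPM in KO 1, 2 and 3, against 48.6, 121 and 0.0573 CPM in WT 1, 2 and 3. It was high in WT 1 and WT 2 and near the limit that a count of 0 allows in the other 4 livers; it was too low in these for edgeR's filter, and DESeq2 called it lower in KO (adjusted p 0.0121). KO 1 was the highest of the 6 livers in others: Pnpla3, a lipid droplet lipase, had 30.6, 4.10 and 1.38 CPM in the KO libraries, against 1.55, 1.43 and 2.01 CPM in the WT libraries, and Nr1d1, a clock repressor, had 128, 50.7 and 85.8 CPM in the KO libraries, against 21.2, 45.4 and 45.0 CPM in the WT libraries.

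The KO effect was then compared between ages in a fit of all 22 libraries. The 4-week files are named as paired and the 20-month files as single, so that age and library type cannot be told apart in the levels. The 4-week libraries were also shallower, with 5496425 to 6956124 gene counts against 18032355 to 26789350 at 20 months. Against 8 weeks, 0 of 15877 genes had a different effect by edgeR (0% higher and 0% lower, smallest adjusted p 0.213, 1798 at an unadjusted p of 0.05), with 143 by DESeq2 and 517 by edgeR without WT 3. Against 4 weeks, 318 genes had a higher effect at 20 months (2.0%) and 400 a lower one (2.52%), 718 in all. Leaving out 1 library, this number was 446, 449 and 338 without KO 1, 2 or 3, 237, 397 and 1243 without WT 1, 2 or 3, and 24 without both WT 1 and WT 2.

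In male-biased genes the ages gave different values. At 4 weeks the median log2 fold change of the list was -4.59, at 8 weeks -0.74 and at 20 months 0.04. The lowest, median and highest Mup20 levels were 11.1, 12.4 and 19.9 CPM in KO and 700.1, 1073 and 1176 CPM in WT at 4 weeks, and 4.16, 37.1 and 3514 CPM in KO and 1007, 1575 and 2249.6 CPM in WT at 8 weeks, whereas the aged KO livers were all within the WT range. At 8 weeks the lowest, median and highest levels of Elovl3 were 0.0865, 0.221 and 208 CPM in KO against 47.1, 50.7 and 68.0 CPM in WT, and those of Slco1a1 15.3, 43.1 and 982 CPM in KO against 558, 753 and 829 CPM in WT. In all 3 genes the median KO liver of 8 weeks was far below every WT liver of that age and the highest KO liver above them. The Mup20 effect at 20 months minus that at 4 weeks was 5.98 ± 2.45, with an adjusted p of 0.153 by edgeR. Slco1a1, an uptake carrier of male liver, had a difference of 6.53 ± 1.84 with an adjusted p of 0.0467 by edgeR. Sult1e1 was 533, 1287 and 1847 CPM in KO and 1.33, 2.09 and 4.27 CPM in WT at 4 weeks, and its difference was -10.75 ± 2.68, with an adjusted p of 0.0291 by edgeR. The call for Slco1a1 held only without WT 3 when 1 library of 20 months was left out, and that for Sult1e1 only without WT 2 or WT 3.

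Other named genes split by age as well. Ppp1r3c had a log2 fold change of -2.31 ± 0.80 at 4 weeks (edgeR adjusted p 0.0667) and 1.67 ± 0.78 at 20 months, and the difference of 3.98 ± 1.11 had an adjusted p of 0.0460 by edgeR, lost without any 1 library but WT 3. Hamp rose at 4 weeks, at 1553, 1876 and 3177 CPM in KO against 90.5, 186 and 319 CPM in WT at 4 weeks, a log2 fold change of 3.47 ± 0.52 (edgeR adjusted p 0.00104), and its difference of -2.54 ± 0.68 had an adjusted p of 0.0401 by edgeR, held only without KO 1 or WT 3. Asns had a difference of -6.60 ± 1.32 with an adjusted p of 0.0116 by edgeR and held without any 1 library, but not without WT 1 and WT 2 together. Of the 25 named genes that passed this test, 11 remained called without WT 1, and 8 without both WT 1 and WT 2. Lrtm1 had log2 fold changes of 1.74 ± 0.73, 2.09 ± 0.57 and 1.46 ± 0.67 at 4 weeks, 8 weeks and 20 months, none of which passed edgeR in that fit (adjusted p 0.127, 0.249 and 0.478).

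**Figure D5:**
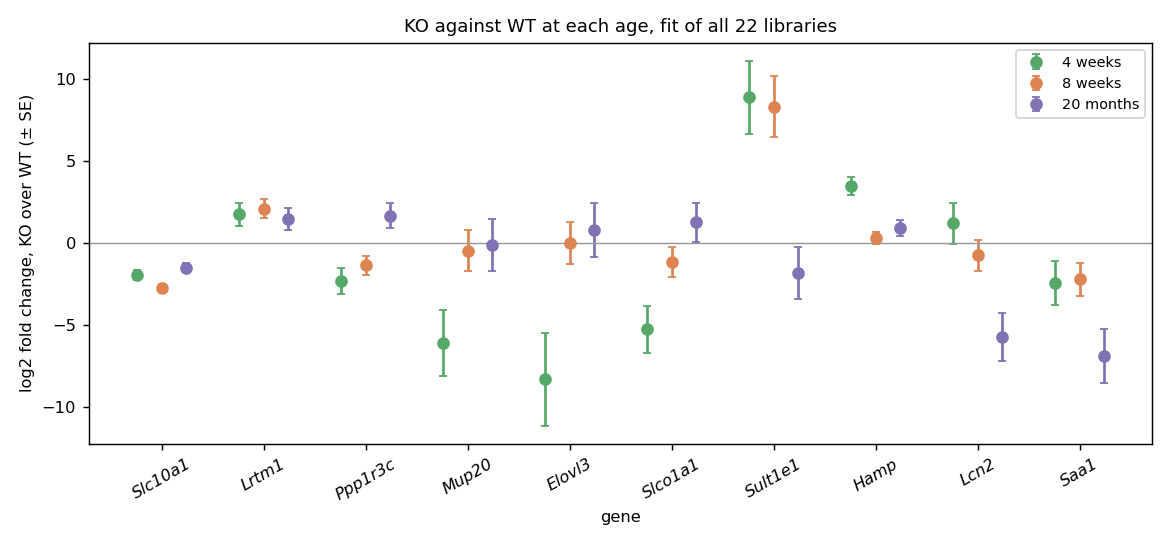
Log2 fold change of KO over WT (points, with SE bars) for 10 genes at 4 weeks, 8 weeks and 20 months in the edgeR fit of 22 libraries. The fitted changes of Mup20, Elovl3 and Slco1a1 lie far below 0 at 4 weeks and nearer to 0 at 8 weeks, where the KO livers spread widely, Sult1e1 lies far above 0 at 4 and 8 weeks, and Lcn2 and Saa1 lowest at 20 months.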

How the data were processed

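The submitters' processing notes name HISAT2 2.0.4, HTSeq 0.6.1p1 and the build GRCm38; which annotation and strand setting were used is not given in the sources used here. The authors deposited raw counts per gene (47729 gene lines per library); the 5 summary lines were kept out of library sizes and tests. Symbols came from GENCODE M21 for 47224 genes. Without a known strand setting, genes with overlapping exons are uncertain (of those named, Rgs16, Hamp2, Zfp276, Cep85l, Slc25a25, Plk3, Smpd3, Abcb11, Elovl3, Mafg, Nr1d1, Spp1, Pnpla3, Manf, Fgg, Me1, Acot3, Hsp90b1 and Mpo), as are near copies (Saa1 and Saa2, Orm, Hamp and Hamp2, Mup, Ugt1a, globins). Tests ran in R (4.3.3), with edgeR (4.0.16; filterByExpr, TMM, 2-sided quasi-likelihood F-test, group means, Benjamini-Hochberg over all genes tested, threshold 0.05; biological coefficient of variation 0.339) and, as an alternative, DESeq2 (1.42.0). CPM used TMM factors of the 6 libraries, or of 22 in the comparison of ages. The SE is the log2 fold change divided by the square root of F. A share of counts carries a 95% Wilson interval, which covers counting error only.

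Named genes were 30 preset genes, the 10 per direction with the smallest p and non-overlapping groups (mean log2 CPM of at least 1, no predicted genes), the 2 smallest-p members of each of 38 lists (24 pathway, 14 cell marker), the 8 most abundant acute-phase genes and 5 per direction of the age test against 4 weeks, none passing against 8 weeks. Exceptions are marked in the text. Orm1, Apcs, Fgl1, S100a9, Mpo, Camp, Ltf, Mki67 and Ccr2 are further exceptions, named after their values were seen. The members and lists were chosen with earlier results of these data known. Alternatives were other normalizations, filters and tools, a replicate block, each library left out, WT 1 and WT 2 left out together, and, chosen after seeing the data, WT 1 and KO 1 left out together. The scripts were tested on simulated data.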

Additional observations from a re-analysis of the deposited data

Results flagged for a closer look

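The effect of the KO genotype differed between 20 months and 4 weeks in 25 of 123 named genes, by edgeR's quasi-likelihood test of the difference itself in 22 libraries at an adjusted p of 0.05. Over all 15877 genes tested, 318 (2.0%) had a higher effect at 20 months and 400 (2.52%) a lower one. Some genes were named for a small p in this test and others for their 20-month values. The count of 25 is therefore no result about the named genes. Each value is the log2 fold change at 20 months minus that at 4 weeks. Among preset genes it was -10.75 for Sult1e1, 6.53 for Slco1a1, -6.96 for Lcn2, -2.54 for Hamp and -7.08 for S100a8. Without WT 1 of 20 months it was -6.74 for Sult1e1 and -3.98 for S100a8, and without WT 1 and WT 2 together -1.27 for Lcn2, -6.26 for Sult1e1 and 0.32 for S100a8, a turn of sign. Among genes with groups that did not overlap at 20 months it was 3.98 for Ppp1r3c, -6.63 for Orm2, -5.64 for Smpd3 and -2.07 for Zfp810. Without WT 1 and WT 2 it was -0.80 for Orm2, -2.81 for Smpd3 and -1.18 for Zfp810, and none of the 9 genes named so far was then called by edgeR. Among the list members it was -1.88 for Cyp2c70, a hydroxylase that makes muricholic acids in mice, 1.14 for Mafg, -2.18 for Cyp3a13, -3.98 for the squalene epoxidase Sqle, -6.60 for Asns and 1.26 for the endothelial receptor Eng. Of these 6 genes 0 were called without WT 1 and WT 2, and Asns was then -3.65.

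The 10 genes with the smallest p of this test, 5 per direction, had differences of 1.97 for Map3k10, 2.0 for Plod3, 3.17 for Sned1, 1.26 for Dync1h1 and 1.72 for Zfp703, and -3.25 for 1700086O06Rik, -2.54 for Mpv17l, -5.38 for Gm27252, -3.19 for Trdmt1 and -4.56 for Actg1. Actg1, cytoplasmic actin, had lowest, median and highest levels of 206, 251 and 262 CPM in KO against 20.2, 20.3 and 20.3 CPM in WT at 4 weeks, and 30.5, 34.5 and 35.1 CPM in KO against 30.02, 43.5 and 126 CPM in WT at 20 months. Library type and age cannot be told apart in these levels.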

How the results depend on the processing

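The count of 0 genes in KO against WT at 20 months held under RLE and upper-quartile scaling, the robust fit and both other filters. It also held in the fit of 22 libraries and without WT 1 and KO 1 together. It was 53 by DESeq2, and leaving out 1 library at a time gave 0 to 71, the 71 without WT 3. Leaving out WT 1 and WT 2 together leaves 1 WT liver, assumed to vary like the KO livers, so that fit cannot check the count. Same-numbered KO and WT libraries had correlations of their deviations of 0.436, 0.029 and 0.458, against -0.497 to 0.277 for differently numbered ones. Whether same-numbered libraries share more than a number was not tested. With the replicate number as a block edgeR called 0 genes (1225 at an unadjusted p of 0.05, against 772 without the block). The difference from 8 weeks (0 genes) became 14 with no filter, 143 by DESeq2, and 0 to 517 with 1 library left out. That from 4 weeks (718) became 404 with no filter, 1556 by DESeq2, 24 without WT 1 and WT 2 together, and 237 to 1243 with 1 library left out. The cause was not tested. Of 121 named genes tested at 20 months, 15 gained a call without WT 3 and 17 by DESeq2, and 39 changed sign, uncalled, without WT 1 and WT 2. Medians of 13 of 38 lists moved without WT 1 and WT 2, by more than the SD of the list's score over the 3 WT libraries. WT 1 and WT 2 themselves widen that SD in some lists. The acute-phase list, with medians of -1.07 and 0.07 and an SD of 1.22, is therefore not among the 13. Sult1e1 changed sign, uncalled, without WT 1. Depth limits levels under 0.112 to 0.166 CPM at 20 months and under 0.431 to 0.546 CPM at 4 weeks. Having 3 livers a group limits every fold change.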

Other observations

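Cidea and Fabp2, both of lipid storage and transport, were low in WT 1 and WT 2 and high in WT 3. Cidea, which enlarges lipid droplets, had 1.51, 10.1 and 27.8 CPM in KO 1, 2 and 3, against 0.0719, 0 and 44.2 CPM in WT 1, 2 and 3, so the WT livers included both the lowest and the highest levels. Fabp2, an intestinal-type fatty acid binding protein, had 53.8, 94.8 and 138 CPM in the KO libraries, against 11.2, 21.4 and 127 CPM in the WT libraries. Scd2, a fatty acid desaturase, ran the other way with 5.87, 3.64 and 3.24 CPM in the KO libraries, against 25.6, 12.1 and 3.78 CPM in the WT libraries. In the fatty acid synthesis list, 2 of 28 tested genes were higher and 1 lower in KO at an unadjusted p of 0.05 by edgeR. Over all genes tested these shares were 1.66% and 3.87%. After adjustment 0 passed edgeR or DESeq2. The list's median log2 fold change was 0.50, and -0.04 against WT 3 alone.

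A few genes of other lists lay below every WT liver in each KO liver without passing edgeR or DESeq2. Over all 13966 genes tested, 4.71% lay so and 5.46% lay above every WT liver, so the genes given here are single values only. Btg2, an antiproliferative p53 target, had 13.4, 6.93 and 9.48 CPM in the KO libraries, against 48.3, 17.6 and 14.7 CPM in the WT libraries. Rgs5, a marker of pericytes and stellate cells, had 28.0, 46.0 and 43.5 CPM in the KO libraries, against 112, 80.8 and 47.7 CPM in the WT libraries. Selenbp2, a selenium-binding protein of male liver, had 40.1, 28.8 and 9.86 CPM in the KO libraries, against 69.8, 190.0 and 44.4 CPM in the WT libraries. Cyp3a13, a drug-metabolising cytochrome, had 115, 186 and 186 CPM in the KO libraries, against 361, 275 and 200.5 CPM in the WT libraries. Id1, a target of the bone morphogenetic protein pathway that also drives hepcidin, lay above every WT liver, with 7.19, 4.56 and 5.28 CPM in the KO libraries, against 3.81, 2.38 and 2.52 CPM in the WT libraries. Cdh1, E-cadherin, which DESeq2 called lower in KO (adjusted p 0.0252), had 1.37, 1.28 and 0.519 CPM in the KO libraries, against 15.2, 19.2 and 0.516 CPM in the WT libraries, with WT 3 level with KO 3. Lymphocyte markers had summed levels of 309.9, 515 and 73.2 CPM in KO 1, 2 and 3, against 292, 312 and 96.4 CPM in WT 1, 2 and 3, lowest in KO 3 and WT 3. Erythroid markers had 68.4, 182 and 176 CPM in KO 1, 2 and 3, against 82.3, 230.3 and 157 CPM in WT 1, 2 and 3, lowest in KO 1 and WT 1.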
